A study of Mus musculus with 18 samples.

Results

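The 7 mature miRNAs described here belong to the miR-23, miR-27 and miR-24 clusters, and were followed through small RNA libraries of C2C12 cells, a mouse myoblast line that forms myotubes when serum is lowered. They were chosen by name, as the 7 of 2042 names in the table that are mmu-miR-24-3p, mmu-miR-3074-5p, mmu-miR-23a-3p, mmu-miR-23b-3p, mmu-miR-27a-3p, mmu-miR-27b-3p and mmu-miR-27a-5p, written below without the species prefix. The study asked which miRNAs are retained by the 3'UTR of MRTF-A, a coactivator of serum response factor, before and after muscle differentiation. It used miTRAP, in which a bait RNA tagged with MS2 hairpins is held on a resin and the small RNA it retains from a cell lysate is eluted and sequenced. The 6 groups of 3 libraries were eluates of the MRTF-A bait, eluates of an MS2 control and input RNA, each from cells after 7 days of myogenic differentiation in medium with 2% horse serum (HS), and the same 3 kinds from undifferentiated cells grown in 10% FCS. All groups come from this 1 cell line. Whether the 3 libraries of a kind were grown apart is not in the labels, and the tests therefore cover no more than the scatter among them, possibly all technical. Letters A, B and C name the libraries of a group by the suffixes of their columns, which are not tied to the replicate numbers of the labels.

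The mouse carries these miRNAs in paralogous clusters, from which a common precursor is cut into a miR-23, a miR-27 and a miR-24 hairpin. Each hairpin gives a 5p and a 3p arm, of which one, the guide strand, is usually loaded into Argonaute and pairs with target RNAs through its seed, while the other is usually lost. In muscle, miR-24 is known to promote differentiation of myoblasts, miR-27 to repress Pax3 and myostatin, and miR-23a to repress the atrophy genes atrogin-1 and MuRF1. miR-3074-5p is annotated on the strand opposite to the miR-24 hairpins.

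The mature sequences are shown because seeds and paralog differences decide which values can be told apart. They are RefSeq entries on GRCm38.p6, matched for 6 of the 7 miRNAs, 5′ to 3′, with the seed (bases 2 to 8) in capitals.
miR-24-3p: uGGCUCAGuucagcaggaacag
miR-3074-5p: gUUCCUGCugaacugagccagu
miR-23a-3p: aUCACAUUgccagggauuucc
miR-27a-3p: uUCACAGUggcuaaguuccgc
miR-27b-3p: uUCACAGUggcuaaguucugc
miR-27a-5p: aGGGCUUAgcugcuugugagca
miR-27a-3p and miR-27b-3p share their seed and differ by 1 substitution, C19U, counted from the 5′ end with the miR-27a base first. Reads that do not cover or match that base could have been split between both names in counting. The reverse complement of miR-24-3p, with the 20 bases it shares with miR-3074-5p in capitals, reads as follows.
miR-24-3p reverse complement: cuGUUCCUGCUGAACUGAGCCA
The sources used here do not give how strand was handled in counting. Without strand the reads of an RNA and its antisense partner cannot be told apart. miR-23b-3p had no matched sequence, so its seed and its differences from miR-23a-3p were not compared. Whether reads of the miR-23 pair could have been split between both names was therefore not checked. For the 6 matched members, apart from the miR-27 pair, 4 names with a matched sequence share a seed, all with miR-24-3p. These are miR-6413, miR-6410, miR-6369 and miR-5124b, with 2, 0, 3 and 3 reads over all 18 libraries.

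One cluster lies on the plus strand of chromosome 8 within chr8:84208518-84208921 (GRCm38), with Mir23a, Mir27a and Mir24-2 in that order and Mir3074-2 on the minus strand across Mir24-2. No protein-coding gene covers it in GENCODE vM21, and an exon of the lincRNA Gm26532 begins at the end of Mir24-2. The other lies on the plus strand of chromosome 13 within chr13:63300484-63301283, with Mir23b, Mir27b and Mir24-1, and Mir3074-1 on the minus strand across Mir24-1. It sits inside the protein-coding gene 2010111I01Rik, whose annotated exons overlap Mir27b and Mir24-1 but not Mir23b, and within the span of Fancc on the other strand, none of whose exons overlap a hairpin. miR-24-3p and miR-3074-5p have the same sequence from both loci, so only the miR-23 and miR-27 names separate the clusters.

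Values are the authors' normalised CPM (reads scaled to library size), called signal here, from which whole reads were recovered. Libraries held 306483 to 544504 reads in differentiated and 107165 to 352674 in undifferentiated MRTF-A eluates, 15562 to 23433 and 20525 to 39695 in the MS2 controls, and 314110 to 462847 and 294112 to 860828 in the inputs. MS2 controls were thus the shallowest, and 1 read there was worth 11.9 to 34.3 units of signal. Reads on human-named miRNAs set 3 MS2 libraries (differentiated A and B, undifferentiated A, 0.755 to 0.930%) apart from the other 3 (0.0900 to 0.115%). Results against MS2 were repeated with each kind alone. The 6 striated-muscle miRNAs checked, miR-1a-3p, miR-133a-3p, miR-133b-3p, miR-206-3p, miR-499-5p and miR-208b-3p, took 6.62 to 11.5% of reads in differentiated inputs and 0.0441 to 0.384% in undifferentiated inputs, where miR-1a-3p, miR-499-5p and miR-208b-3p had 0 reads. Markers of other tissues were scarce in differentiated and undifferentiated inputs, with 6 and 1 reads for 3 blood miRNAs, 47 and 58 for 3 epithelial, 84 and 278 for 2 neural (miR-124-3p at 0) and 0 and 1 for the endothelial miR-126a-3p.

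In the inputs the members differ widely in abundance, and their order by signal put miR-27b-3p first in both states. miR-27b-3p ranked 12 of all names in differentiated input by mean signal, against 31 for miR-24-3p, 38 for miR-27a-3p, 47 for miR-23a-3p, 64 for miR-23b-3p, 160 for miR-27a-5p and 183 for miR-3074-5p. Mean signal in differentiated input was 18697 ± 1637 for miR-27b-3p, 2992 ± 407 for miR-24-3p, 2285 ± 119 for miR-27a-3p, 1784 ± 127 for miR-23a-3p, 934 ± 71.5 for miR-23b-3p, 82.4 ± 60.4 for miR-27a-5p and 63.2 ± 15.7 for miR-3074-5p (SD, n = 3 libraries). Of the neighbours in this order only miR-27a-5p and miR-3074-5p overlapped between libraries. In undifferentiated input the order was miR-27b-3p at 11926 ± 2158, miR-27a-3p at 4971 ± 1791, miR-23a-3p at 2349.6 ± 479, miR-24-3p at 2199 ± 775, miR-27a-5p at 1897 ± 555, miR-23b-3p at 469.9 ± 173 and miR-3074-5p at 96.5 ± 37.9. There miR-23a-3p, miR-24-3p and miR-27a-5p overlapped. These ranks are of signal as measured and are not numbers of molecules.

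**Figure D1:**
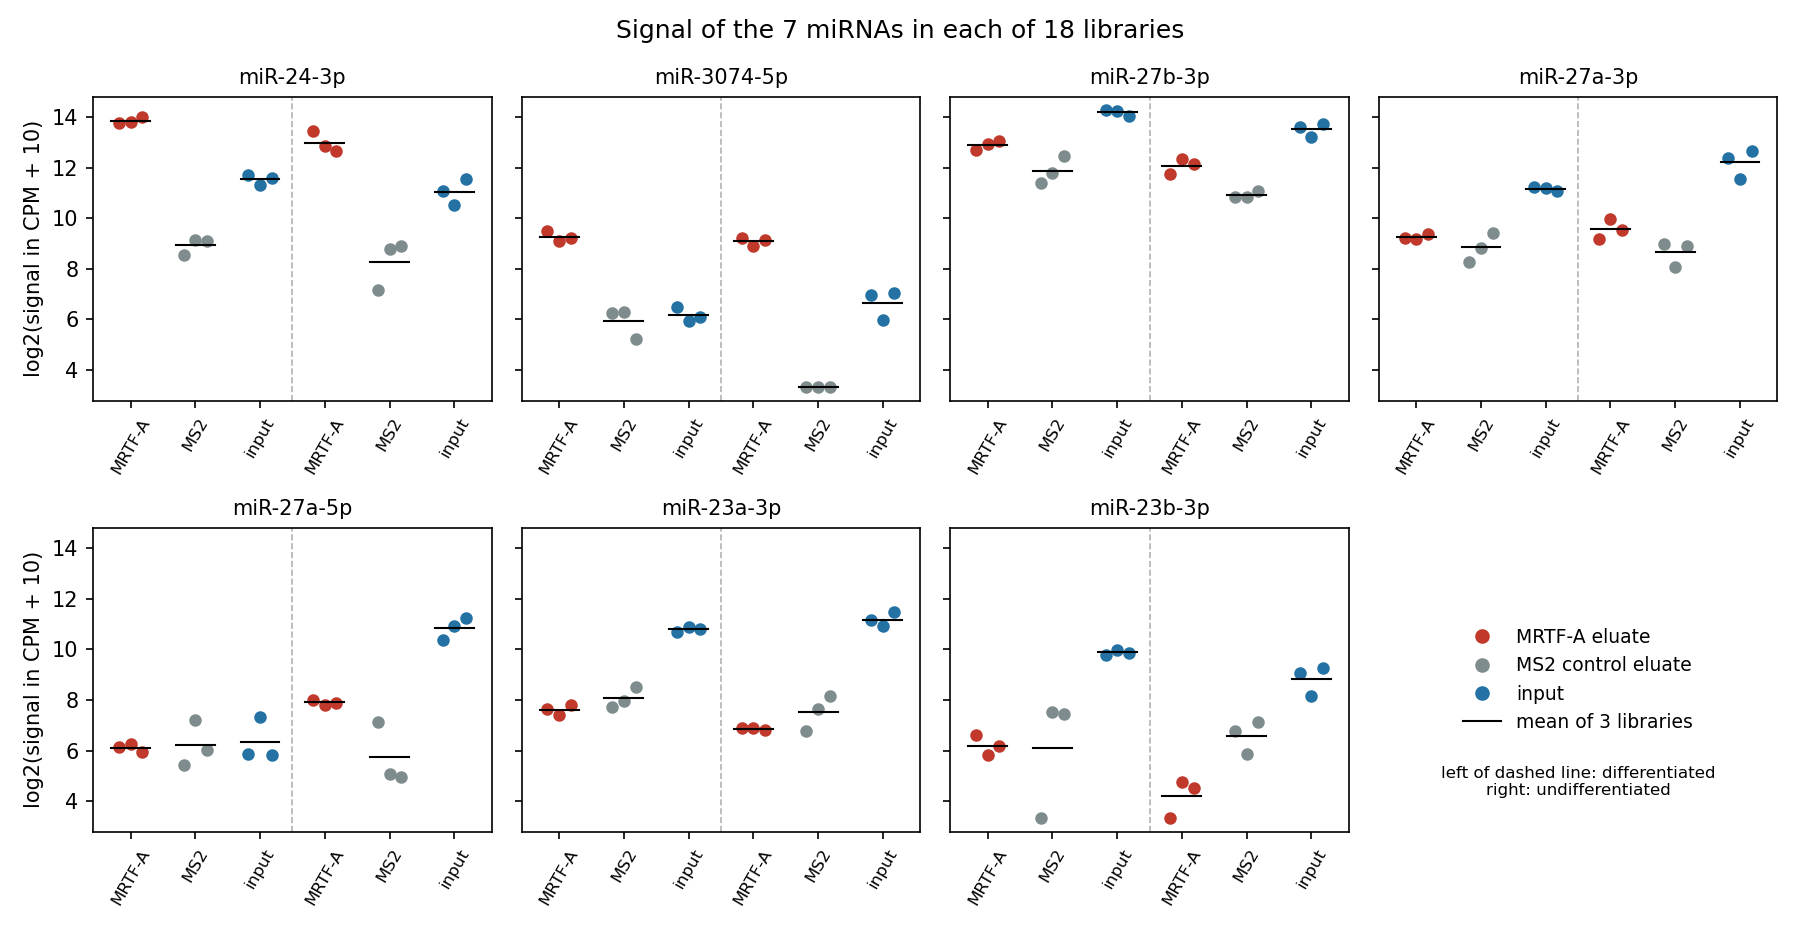
Signal of each of the 7 miRNAs as log2(CPM + 10) in the 18 libraries, points for libraries and bars for group means, with differentiated cells left of the dashed line and undifferentiated cells right of it. miR-24-3p and miR-3074-5p are highest in the MRTF-A eluates, whereas miR-23a-3p, miR-23b-3p, miR-27a-3p and miR-27b-3p are highest in the inputs.

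Comparing differentiated with undifferentiated input asked how the cells' own supply of these miRNAs changed. The strongest change was that of miR-27a-5p, the arm of the chromosome 8 hairpin opposite to the miR-27a guide. Its signal was 47.7, 152 and 47.3 in differentiated inputs A, B and C, against 1312, 1962 and 2417 in undifferentiated inputs. Every differentiated library was far below every undifferentiated one. In such bulk RNA, fewer cells that make a miRNA and less of it per cell cannot be told apart. The log2 difference was -4.51 ± 0.43 (SE; limma adjusted p = 4.21e-06), and it lay between -5.01 and -3.86 and past the threshold of 0.05 under all 15 alternatives tried.

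miR-27a-3p, the guide strand of the same hairpin and a repressor of Pax3 in muscle precursors, was at 2383, 2319 and 2153 in differentiated inputs, against 5387, 3009 and 6517 in undifferentiated inputs. The groups did not overlap, and the log2 difference was -1.05 ± 0.34 (limma adjusted p = 0.0172). miR-23b-3p, from the chromosome 13 cluster, was at 867, 1009 and 927 in differentiated inputs, against 529.9, 275 and 605 in undifferentiated inputs. It too did not overlap, in the opposite direction, at 1.05 ± 0.35 (limma adjusted p = 0.0190).

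miR-27b-3p, its neighbour on chromosome 13, was at 19739.9, 19541 and 16809.7 in differentiated inputs, against 12528, 9530.0 and 13719 in undifferentiated inputs. Although these groups did not overlap, the difference of 0.66 ± 0.31 missed the threshold (limma adjusted p = 0.0800). miR-24-3p, made from both loci, overlapped between the states, with 3356, 2553 and 3067 in differentiated inputs against 2159, 1445 and 2994 in undifferentiated inputs (0.50 ± 0.34, limma adjusted p = 0.223). miR-23a-3p (-0.38 ± 0.30, limma adjusted p = 0.292) and miR-3074-5p (-0.49 ± 0.38, limma adjusted p = 0.279) did not pass either.

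Of the 7 members, all of which were tested, 1 was higher and 2 were lower in differentiated input. Among all 313 miRNAs tested 62.3% passed the threshold, 16.0% higher and 46.3% lower, so 3 of 7 is no larger a share than in the rest. The median of the members was -0.38, against -0.64 for all tested. The calls of miR-24-3p, miR-27b-3p and miR-27a-3p depend on how libraries are scaled to each other. With TMM factors of the 6 inputs the median of all tested was -0.08 and 88 were called higher and 90 lower, against 50 and 145 with the deposited scaling. There miR-24-3p (1.17, adjusted p = 0.00476 with limma) and miR-27b-3p (1.34, adjusted p = 0.000705 with limma) rose, miR-23b-3p stood at 1.72 and miR-27a-3p at -0.37 did not pass. Leaving out any 1 differentiated input ended the call of miR-23b-3p (0.99 to 1.10, adjusted p 0.0573 to 0.0777 with limma), and any of these or undifferentiated input C did so for miR-27a-3p (-1.08 to -0.82, adjusted p 0.0583 to 0.0688 with limma). Without undifferentiated input C miR-27b-3p passed (0.77, adjusted p = 0.0493 with limma), and without undifferentiated input B so did miR-3074-5p (-0.83, adjusted p = 0.0379 with limma). Relative to the median of all tested, the deposited scaling put miR-23b-3p at 1.69, miR-27b-3p at 1.30, miR-24-3p at 1.13, miR-23a-3p at 0.26, miR-3074-5p at 0.15, miR-27a-3p at -0.41 and miR-27a-5p at -3.87. In the authors' deposited table only miR-27a-5p (log2 fold change -4.52, FDR 4.05e-14) and miR-27a-3p (-1.12, FDR 0.0245) of the members were under 0.05.

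Shares of reads within a library do not depend on that scaling. Among the reads of both miR-23 guides, miR-23a-3p held 65.6, 65.4 and 65.9% in differentiated inputs, against 81.1, 87.4 and 82.6% in undifferentiated inputs. Its share was lower in every differentiated library, with a mean difference of -18.1 percentage points. Among the reads of both miR-27 guides, miR-27a-3p held 10.8, 10.6 and 11.4% in differentiated inputs, against 30.1, 24.0 and 32.2% in undifferentiated inputs, a difference of -17.8 points. Among the reads of both miR-27a arms, miR-27a-5p held 1.96, 6.16 and 2.15% in differentiated inputs, against 19.6, 39.5 and 27.1% in undifferentiated inputs, a difference of -25.3 points. In none of the 3 shares did the groups overlap, although miR-27a-5p was widely spread among the undifferentiated inputs. The exact 2-sided permutation p was 0.1 for each, the smallest that 3 libraries against 3 allow, and 0.15 after adjustment over the 30 share comparisons made. In 20 of those 30 the groups did not overlap.

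In the miR-23 and in the miR-27 pair the chromosome 8 member thus held a smaller share in differentiated than in undifferentiated input, and miR-23a-3p remained the more abundant of the miR-23 pair in both states. The opposite arms give a further view of the loci. miR-24-2-5p, which only the chromosome 8 hairpin makes, had 764 reads over the differentiated inputs and 900 over the undifferentiated inputs, while miR-24-1-5p of chromosome 13 had 12 and 7. Their counts say which passenger arms were read, not from which locus miR-24-3p came. miR-24-2-5p was at -0.41 ± 0.31 (limma adjusted p = 0.264) and miR-27b-5p at -0.50 ± 0.32 (limma adjusted p = 0.194), so neither passed. miR-23a-5p had 2 and 2 reads, miR-23b-5p 1 and 1, miR-3074-2-3p 0 and 15, and miR-3074-1-3p had no read in any library.

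**Figure D2:**
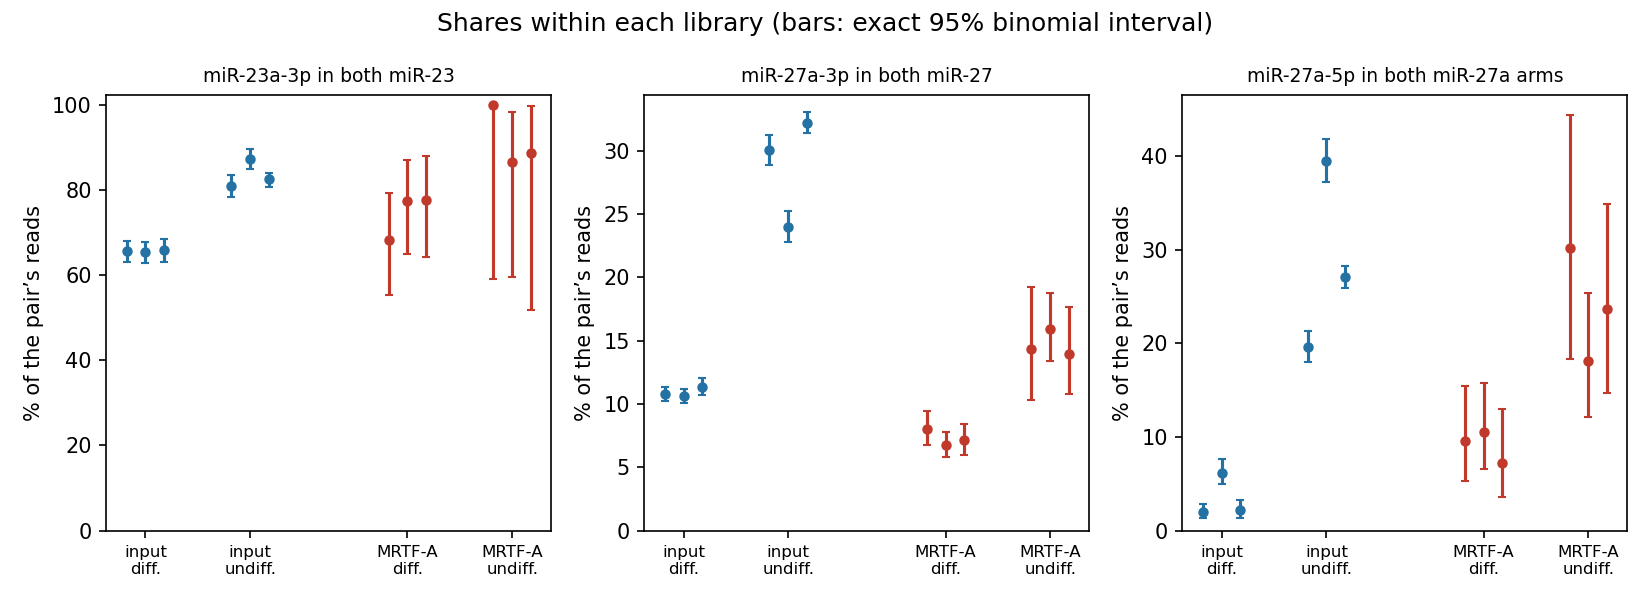
Share of miR-23a-3p among both miR-23 guides, of miR-27a-3p among both miR-27 guides and of miR-27a-5p among both miR-27a arms, in percent of reads, per library of input (blue) and MRTF-A eluate (red), with differentiated left of undifferentiated and exact 95% binomial intervals, which cover counting error only. Each share is lower in all differentiated libraries than in all undifferentiated libraries, in inputs and in eluates.

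Recovery with the MRTF-A bait was first read against the MS2 control, the background of the method. miR-24-3p had the largest difference of the tested members in differentiated cells, and in undifferentiated cells it cannot be ranked against miR-3074-5p, whose controls held 0 reads. In differentiated cells its signal was 14003, 14216 and 16643 with the bait, against 365, 549 and 542 with the MS2 control. In undifferentiated cells it was 11161, 7369 and 6453 with the bait, against 131, 427 and 469.6 with the MS2 control. No bait library came near a control library in either state, and the log2 differences were 4.94 ± 0.43 (limma adjusted p = 4.90e-07) in differentiated and 4.71 ± 0.43 (limma adjusted p = 7.55e-07) in undifferentiated cells. Both passed under all 17 alternatives, at 3.499 to 5.04 and at 2.84 to 5.84.

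miR-3074-5p, the antisense neighbour of miR-24-3p, was at 719, 539.7 and 581 with the bait in differentiated cells, against 66.4, 68.7 and 27.1 with the MS2 control. In undifferentiated cells it was at 583, 474 and 555 with the bait and had 0 reads in all 3 MS2 libraries. The differentiated controls held 5 reads in all, and the ratio of pooled reads scaled by library was 11.7 (95% counting interval 4.97 to 36.2; limma adjusted p = 1.67e-05). Against the empty undifferentiated controls the signal was at least 8.13-fold higher, taking 3 reads per library as the floor. The limma adjusted p of 1.68e-07 there is against 3 libraries at 0, which show no scatter, so it does not measure the spread of the control. miR-3074-5p passed under all 17 alternatives in each state, but all of these rest on the same few or absent control reads. It met the filter on reads through the bait libraries.

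The miR-27 guides were less clearly separated. miR-27b-3p was at 6670.3, 7836 and 8548 with the bait in differentiated cells, against 2657, 3536 and 5659.6 with the MS2 control. In undifferentiated cells it was at 3388, 5176 and 4499 with the bait, against 1805, 1839.8 and 2156 with the MS2 control. Bait and control did not overlap, and the differences were 1.02 ± 0.31 (limma adjusted p = 0.00839) and 1.15 ± 0.31 (limma adjusted p = 0.00567). Relative to the median of all tested they stood at -1.35 and -0.01, the medians being 2.37 in differentiated and 1.16 in undifferentiated cells. With library totals in place of the deposited scaling the sign turned, to -0.42 and -0.74, neither past the threshold, so the direction of miR-27b-3p against the control rests on the scaling.

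miR-27a-3p was at 579.8, 566 and 658 with the bait in differentiated cells, against 299, 446 and 677 with the MS2 control, and overlapped (0.41 ± 0.38, limma adjusted p = 0.338). In undifferentiated cells it was at 567, 980.3 and 731, against 492, 261 and 469.6 with the MS2 control (0.90 ± 0.38, limma adjusted p = 0.0587). Those libraries did not overlap, and the call was made without undifferentiated bait library A (1.09, adjusted p = 0.0449 with limma). miR-27a-5p was at 61.0, 66.6 and 51.4 with the bait in differentiated cells, against 33.2, 137 and 54.2 with the MS2 control. Those values overlapped (-0.10 ± 0.63, limma adjusted p = 0.903). In undifferentiated cells miR-27a-5p was at 245, 216 and 227 with the bait, against 131, 23.7 and 21.3 with the MS2 control, or 60 reads against 7, without overlap. It was called higher there (2.17 ± 0.63, limma adjusted p = 0.01003), but at 0.51 not with library totals. With the MS2 library of more human-named reads alone the difference was 0.76. miR-27a-5p met the filter on reads only through these undifferentiated bait libraries, the group where it was high, so the call is not independent of the filter. The authors' deposited table gave it 2.24 with an FDR of 0.0725 in undifferentiated cells.

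The miR-23 guides were not above the control. miR-23a-3p was at 187, 159.9 and 216 with the bait in differentiated cells, against 199, 240.3 and 352 with the MS2 control (-0.44 ± 0.44, limma adjusted p = 0.375). In undifferentiated cells it was at 107, 108 and 101 with the bait, against 98.5, 189.9 and 277 with the MS2 control (-0.67 ± 0.44, limma adjusted p = 0.196). In both states its bait and control libraries overlapped, and without undifferentiated MS2 library A it was called lower (-1.06, adjusted p = 0.0446 with limma). edgeR and DESeq2 on the recovered reads called it lower in both states, at -1.37 and -1.27 in differentiated and -1.33 with either tool in undifferentiated cells. miR-23b-3p did not reach the minimum of reads for the test of the eluates. It had 46 reads with the bait against 11 with the control in differentiated cells, a scaled ratio of 0.556 (95% counting interval 0.283 to 1.19), and 3 against 13 in undifferentiated cells, a ratio of 0.141 (0.0257 to 0.512). The authors' deposited table gave it a log2 fold change of -2.77 with an FDR of 0.0415 in undifferentiated cells and -0.79 with an FDR of 1 in differentiated cells.

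Of the 6 members tested, 3 were higher with the bait in differentiated cells and 4 in undifferentiated cells, and none was lower. That leaves out miR-23b-3p, which had 3 reads with the bait against 13 with the control in undifferentiated cells and did not pass the filter on reads. Of the 4, miR-3074-5p and miR-27a-5p met this filter through bait libraries. The background below likewise covers only miRNAs that passed this filter. Among all 169 tested, 79.3% passed in differentiated cells (57.4% higher, 21.9% lower) and 60.4% in undifferentiated cells (43.2% higher, 17.2% lower), so the counts over the members are near the background. With library totals the calls of all tested split into 73 higher and 49 lower in differentiated cells, against 97 and 37 with the deposited scaling, and into 55 and 63 in undifferentiated cells, against 73 and 29. edgeR gave 82 and 49, and 71 and 45. The members' medians were 0.72 and 1.66, against 2.37 and 1.16 for all tested, and the undifferentiated one is the same with miR-3074-5p at its bound. Relative to those medians miR-24-3p stood at 2.57 in differentiated and 3.55 in undifferentiated cells, and miR-23a-3p at -2.81 and -1.83. Both kinds of MS2 library gave miR-24-3p past the threshold, at 4.76 and 5.03 in differentiated cells for few and for more human-named reads, and at 4.15 and 5.84 in undifferentiated cells. With few human-named reads alone miR-27b-3p did not pass in differentiated cells (0.43).

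**Figure D3:**
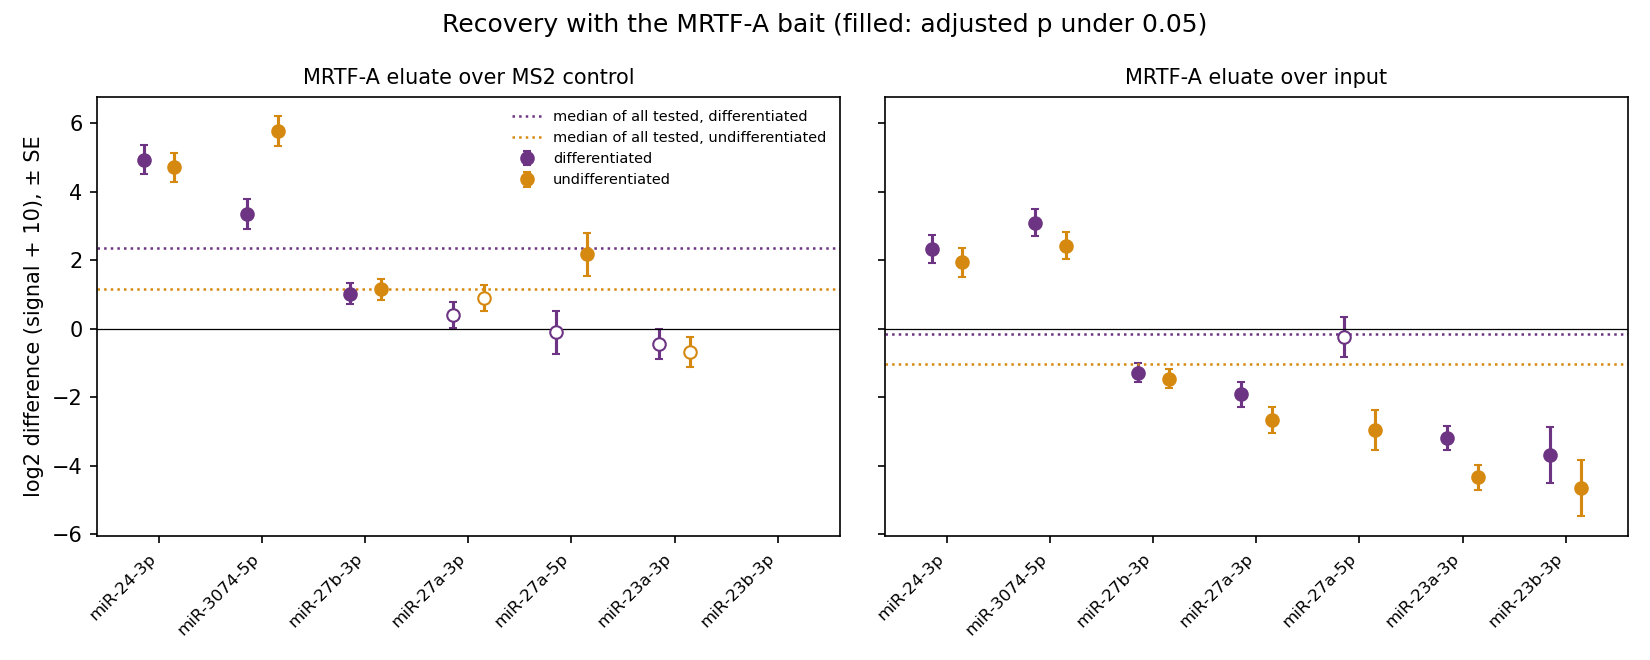
Log2 difference of signal + 10 for each member, MRTF-A eluate over MS2 control (left) and over input (right), with SE from limma, purple for differentiated and orange for undifferentiated cells, filled where the adjusted p is under 0.05. Dotted lines give the median of all miRNAs tested, and miR-24-3p and miR-3074-5p alone lie above 0 and above that median in both panels and both states. The undifferentiated miR-3074-5p value over MS2 is a fit against libraries with 0 reads and not a measured fold. miR-23b-3p is absent from the left panel because it was not tested there.

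**Figure D4:**
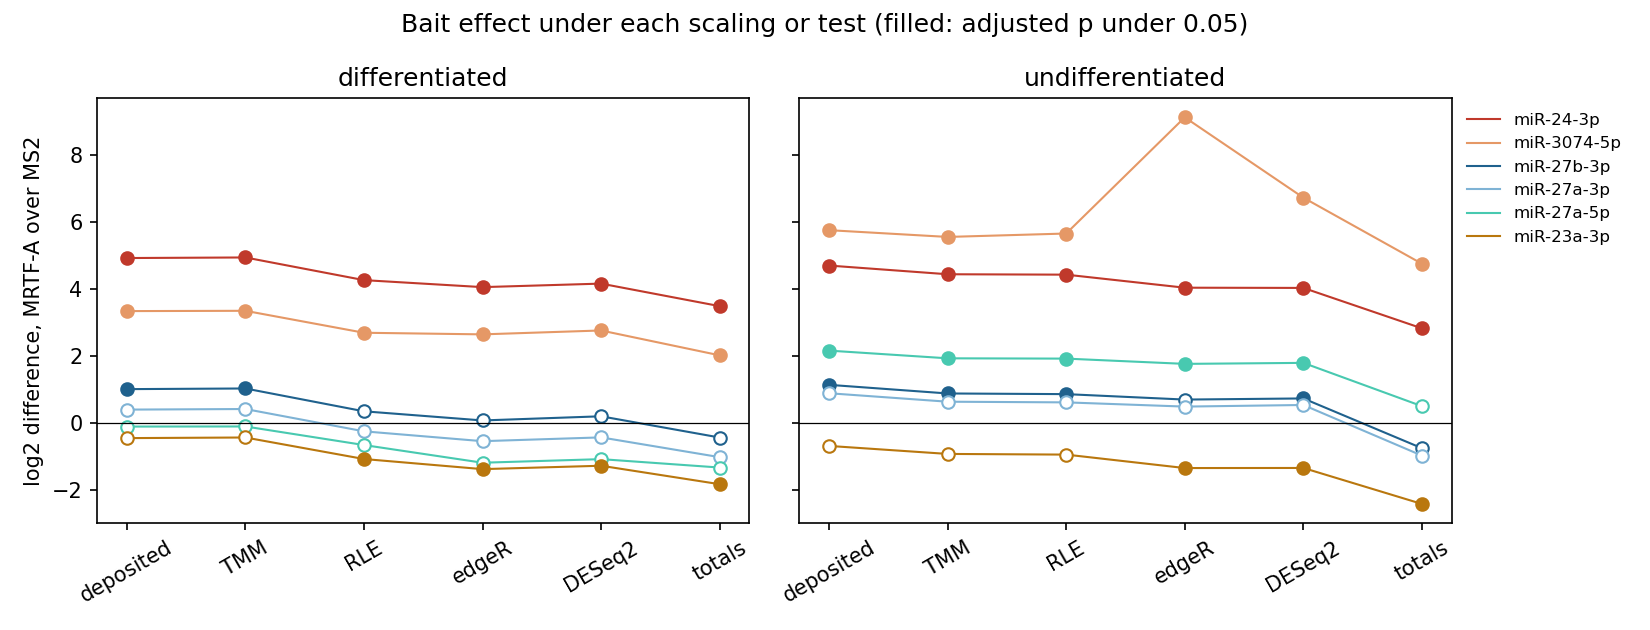
Log2 difference of MRTF-A eluate over MS2 control for the 6 tested members under the deposited scaling, TMM and RLE factors of the eluates, edgeR, DESeq2 and library totals, lines joining the values of a miRNA and filled points marking adjusted p under 0.05. miR-24-3p and miR-3074-5p stay filled throughout, while miR-27b-3p falls below 0 with library totals in both states.

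Bait eluates were next set against the input, which shows what was recovered relative to supply. miR-24-3p (2.32 ± 0.41, limma adjusted p = 9.63e-05, in differentiated and 1.94 ± 0.41, limma adjusted p = 0.000476, in undifferentiated cells) and miR-3074-5p (3.10 ± 0.39 and 2.43 ± 0.39, limma adjusted p = 2.76e-06 and 3.87e-05) were higher in the eluates. With library totals miR-24-3p kept its direction but not its call (1.13 and 1.013, limma adjusted p = 0.0762 and 0.103). All 4 guides of the miR-23 and miR-27 families were lower in the eluates in both states. miR-23b-3p fell by the most, -3.68 ± 0.82 in differentiated and -4.65 ± 0.82 in undifferentiated cells, followed by miR-23a-3p at -3.19 ± 0.35 and -4.34 ± 0.35. miR-27a-3p was at -1.91 ± 0.37 and -2.66 ± 0.37, and miR-27b-3p at -1.29 ± 0.28 and -1.46 ± 0.28 (largest limma adjusted p of these 8 values 0.000821).

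miR-27a-5p was lower in undifferentiated eluates (-2.95 ± 0.59, limma adjusted p = 0.000272) and at -0.23 ± 0.59 (limma adjusted p = 0.772) in differentiated ones, where its input level was already low. In all, 2 of 7 members were higher and 4 lower in differentiated cells, beside 62.0% of all 305 tested called (31.1% higher, 30.8% lower), and 2 higher and 5 lower in undifferentiated cells, beside 68.5% (23.3% higher, 45.2% lower). With library totals the split was 69 higher and 125 lower, against 95 and 94 with the deposited scaling, in differentiated cells, and 50 and 159, against 71 and 138, in undifferentiated cells, where edgeR gave 108 and 95. Medians of all tested were -0.14 and -1.04. Relative to these, miR-23a-3p stood at -3.04 and -3.30 and miR-23b-3p at -3.54 and -3.61. With RLE factors, edgeR and DESeq2 the undifferentiated median of all tested moved to between -0.17 and 0.00, and miR-27b-3p was not called, at -0.18 to -0.15.

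The composition of the 5 guide strands (miR-24-3p and the 4 miR-23 and miR-27 guides) is free of scaling between libraries. miR-24-3p held 65.0, 62.3 and 63.7% of their reads in differentiated bait libraries, against 10.4, 11.1 and 7.33% in the MS2 controls and 11.99, 9.34 and 12.4% in the inputs. In undifferentiated cells it held 73.3, 54.0 and 54.7% with the bait, against 5.00, 15.5 and 13.4% in the MS2 controls and 9.44, 8.93 and 11.2% in the inputs. Bait libraries never overlapped control or input, while control and input overlapped each other in both states. The difference from the control was 54.1 points in differentiated and 49.4 points in undifferentiated cells (exact permutation p = 0.1 each, adjusted 0.15, the smallest this design gives).

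Outside the bait eluates miR-27b-3p was the largest part. It made up 32.7 ± 1.67% of the guide reads with the bait in differentiated cells, against 74.5 ± 2.65% in the MS2 control and 70.0 ± 1.84% in input, and 32.8 ± 9.11% with the bait in undifferentiated cells, against 65.6 ± 3.67% and 55.0 ± 3.78% (SD, n = 3). miR-23a-3p made up 0.799 ± 0.0883% with the bait in differentiated cells, against 5.09 ± 0.493% in the control and 6.71 ± 0.702% in input. Its undifferentiated values were 0.784 ± 0.0752% with the bait, 6.18 ± 2.17% in the control and 10.8 ± 0.957% in input. Together the 5 guides took 1.37 ± 0.251% of all reads of differentiated bait libraries, 0.946 ± 0.704% of the controls and 3.54 ± 0.349% of the inputs. In undifferentiated cells they took 0.685 ± 0.231%, 0.550 ± 0.145% and 2.03 ± 0.469%.

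**Figure D5:**
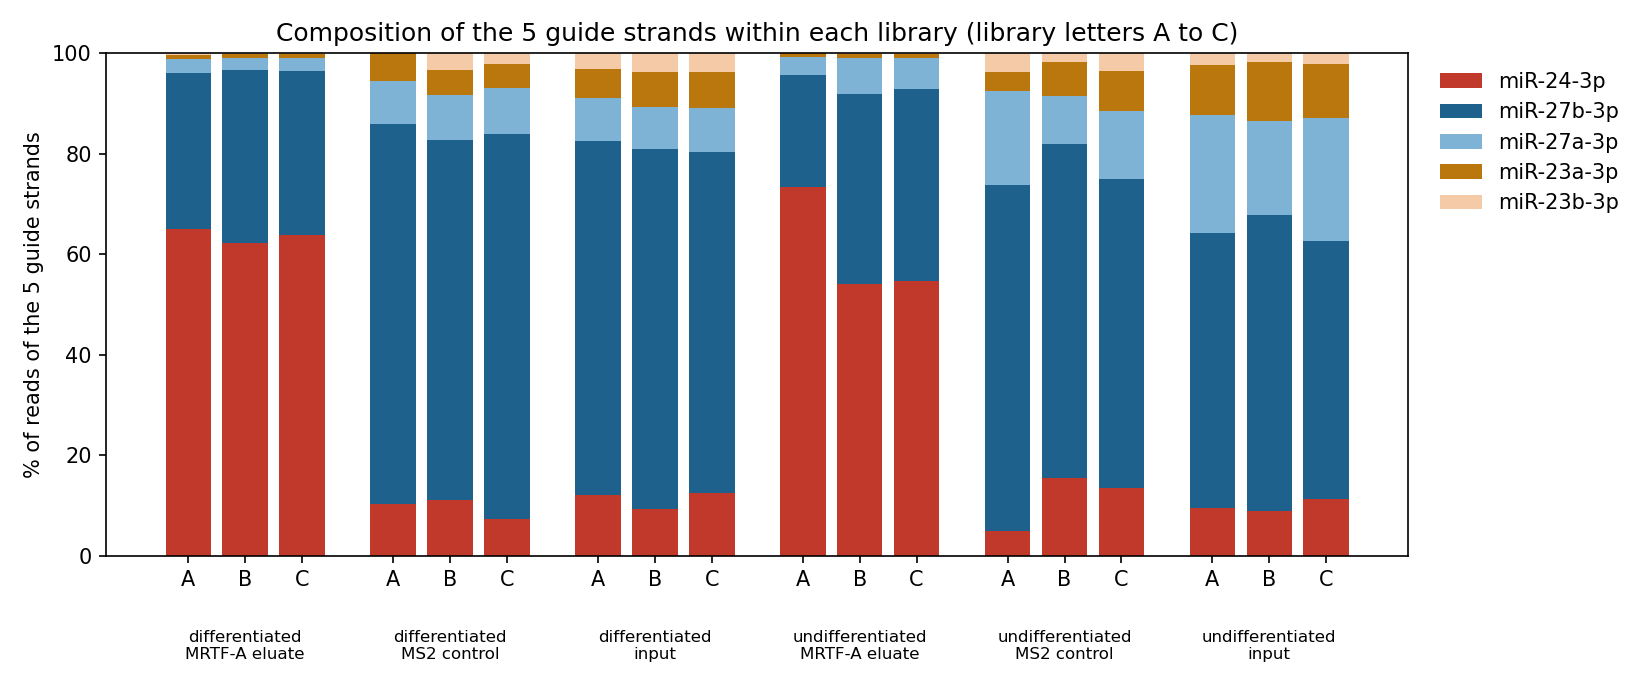
Reads of each of the 5 guide strands as a percentage of their sum, 1 bar per library, 3 libraries (A to C) in each of the 6 groups. miR-24-3p fills 54.0 to 73.3% of the bars of the MRTF-A eluates and 5.00 to 15.5% of all other bars, which miR-27b-3p dominates.

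Among MRTF-A eluates, miR-24-3p was at 0.88 ± 0.43 between differentiated and undifferentiated cells (limma adjusted p = 0.121), and its share of the guide reads overlapped (63.7 ± 1.38% and 60.7 ± 10.96%). miR-27b-3p was 0.83 ± 0.31 higher (limma adjusted p = 0.0475) and miR-27a-5p 1.78 ± 0.63 lower (-1.78, limma adjusted p = 0.0418). These were 2 of 6 tested members, beside 38.5% of all 169 (23.7% higher, 14.8% lower). miR-27a-5p met the filter on reads only through the undifferentiated bait libraries, the higher group here, so its call is not independent of the filter. miR-27b-3p passed under 3 and miR-27a-5p under 5 of 15 alternatives. Leaving out any 1 of the 6 eluates ended the call of miR-27a-5p (-1.86 to -1.70), and leaving out any but undifferentiated eluate B that of miR-27b-3p (0.66 to 0.93). RLE factors gave 33 higher and 37 lower over all tested, against 40 and 25 with the deposited scaling.

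The shares between paralogs seen in input were also present in the bait eluates. miR-27a-3p held 8.00, 6.74 and 7.15% of miR-27 reads in differentiated eluates, against 14.3, 15.9 and 14.0% in undifferentiated eluates. miR-23a-3p held 68.3, 77.4 and 77.8% of miR-23 reads in differentiated eluates, against 100, 86.7 and 88.9% in undifferentiated eluates, where 28 miR-23a-3p and 3 miR-23b-3p reads were counted. miR-27a-5p held 9.52, 10.5 and 7.25% of miR-27a reads in differentiated eluates, against 30.2, 18.1 and 23.7% in undifferentiated eluates. All 3 were lower in every differentiated library, as in input (exact permutation p = 0.1, adjusted 0.15). In the MS2 controls, on few reads, only the miR-27a-3p share was lower in differentiated cells. There miR-23a-3p held 75.6% in differentiated and 66.1% in undifferentiated cells, and miR-27a-5p 13.6 and 11.2%, with overlap in both. Within a state the bait also held less miR-27a-3p per miR-27 read than input did, with differences of -3.61 points in differentiated and -14.0 points in undifferentiated cells and no overlap. The MS2 control held 10.7 ± 0.547% in differentiated cells, which the bait libraries did not overlap, and 17.2 ± 4.53% in undifferentiated cells (SD, n = 3). In undifferentiated cells the control too lay below input in every library, and the bait overlapped it (-2.50 points, exact permutation p = 0.4, adjusted 0.462). What set these miR-27 shares was not tested.

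A test of whether the bait effect over MS2 differed between the states called 13% of the 169 miRNAs (8.28% higher, 4.73% lower) and, of the 6 members, only miR-3074-5p (-2.42 ± 0.61, limma adjusted p = 0.0241). For miR-24-3p the difference between the states was 0.22 ± 0.61 (limma adjusted p = 0.898), for miR-27b-3p -0.13 ± 0.43, for miR-27a-3p -0.49 ± 0.54, for miR-23a-3p 0.23 ± 0.63 and for miR-27a-5p -2.27 ± 0.89 (limma adjusted p = 0.102). The miR-3074-5p value rests on 5 control reads in differentiated against 0 in undifferentiated cells, so its size depends on the pseudocount and it does not settle in which state the effect was larger. It was lost with edgeR (adjusted p = 0.0642) and DESeq2 (adjusted p = 0.0618). It also missed the threshold without differentiated bait library B or C, differentiated MS2 library B or undifferentiated MS2 library C (-2.42 to -2.23, adjusted p 0.0522 to 0.0725 with limma). Without undifferentiated MS2 library A miR-27a-5p was called too (-2.97, adjusted p = 0.0360 with limma). That miRNA met the filter on reads through the undifferentiated bait libraries.

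miR-3074-5p followed miR-24-3p across the 18 libraries, with a Pearson r of 0.91 between their log2(signal + 10) values, while miR-24-3p and miR-23a-3p had an r of -0.02. These are descriptions over libraries of 6 groups. Names outside the clusters were at least as close, such as miR-199a-5p to miR-3074-5p (0.93) and miR-190b-5p to miR-24-3p (0.94). miR-3074-5p and miR-24-3p were also not in a fixed ratio. miR-3074-5p made up 2.35, 1.95 and 1.86% of their joint reads in differentiated inputs, against 5.09, 3.53 and 3.88% in undifferentiated inputs. In the bait eluates it made up 4.89, 3.66 and 3.37% in differentiated cells, against 4.96, 6.04 and 7.91% in undifferentiated cells, and neither pair of groups overlapped (exact permutation p = 0.1, adjusted 0.15).

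Outside the clusters, the names most like miR-24-3p over the 18 libraries were miR-190b-5p (r = 0.94), let-7a-5p (0.94) and miR-374b-5p (0.94), among 223 miRNAs with a mean signal of at least 50. Those most like miR-23a-3p were miR-181c-5p, miR-30d-5p and miR-6239 (0.97 each), and those most like miR-27b-3p were miR-101a-3p (0.93), miR-378d (0.91) and miR-181a-5p (0.90). miR-27a-5p was most like miR-129-5p (0.90), miR-31-3p (0.83) and miR-7a-5p (0.83). For miR-27a-3p they were miR-31-3p (0.94), miR-345-3p (0.94) and miR-214-5p (0.93), for miR-23b-3p miR-30a-5p (0.89), miR-6239 (0.89) and miR-143-3p (0.86), and for miR-3074-5p miR-199a-5p (0.93), miR-34a-5p (0.92) and miR-374b-5p (0.91).

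Seed matches in the Mrtfa 3'UTR were looked up because the bait carries the MRTF-A 3'UTR, whose exact sequence the sources used here do not give. The longest annotated one, of 1004 bases on the minus strand at chr15:81012281-81013284 (GENCODE vM21, GRCm38), was searched on its sense strand for the complement of seed bases 2 to 8 and of bases 2 to 7. The matches for the miR-27 seed and for miR-24-3p are shown with flanks, 5′ to 3′ on the transcript, with the matching bases in capitals.
miR-27, bases 2 to 8, chr15:81013198-81013219: tgtacgctcctgtgACTGTGAg
miR-27, bases 2 to 7, chr15:81013204-81013225: acccagtgtacgctcCTGTGAc
miR-24-3p, bases 2 to 7, chr15:81013195-81013216: acgctcctgtgactgTGAGCCt
The miR-27 match ACTGTGA lies at bases 80 to 86 of the 3'UTR and the miR-24-3p match TGAGCC at bases 84 to 89, so they overlap. The first 1004 bases of the longest annotated 3'UTR of each gene that has as many, 10216 windows, held ACTGTGA in 12.8%. TGAGCC was in 28.4% of them. The shorter miR-27 match CTGTGA, found on its own at bases 75 to 80, was in 41.6%. For miR-24-3p the longer match CTGAGCC, in 13.5% of windows, was not found. For miR-23a-3p neither AATGTGA (11.6% of windows) nor the shorter ATGTGA (31.8%) was found. For miR-3074-5p the search for GCAGGAA (10.5%) and its shorter form CAGGAA (39.0%) gave none. For miR-27a-5p the letters TAAGCCC (3.30%) and the shorter AAGCCC (23.8%) were absent from the window. The matches are letters in 1 annotated window and were not tested for binding.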

How the data were processed

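Small RNA was read in 18 libraries, with 50 bp reads. Per the submitters' processing notes, cutadapt 1.4.2, Bowtie2 2.0.13, featureCounts 1.4.6, edgeR 3.18.1 and GRCm38 were used. The sources used here do not give multi-mapping or strand settings. The authors deposited 1 table with a signal per library (CPM with edgeR's normalisation factors, as its values show), and, per the file headers, log2 fold changes, p-values and FDR values of their comparisons. Every signal value was a whole number of reads within 0.01 read (100% of values), so reads were recovered. Because the values are a signal, the test was limma 3.58.1 (R 4.3.3) on log2(signal + 10), with Benjamini-Hochberg adjustment over all miRNAs passing edgeR's filter on low reads and a threshold of 0.05. Fold changes on this scale understate those of miRNAs with few reads. Inputs were fitted alone, and bait and MS2 eluates together. Bait against input was fitted over all 18 libraries, so the MS2 controls entered its filter and its estimate of the spread. As an alternative, edgeR 4.0.16 on recovered reads called 181 of 313 miRNAs in input, and 116 and 131 of 169 for bait against MS2 in undifferentiated and differentiated cells. DESeq2 1.42.0, other scalings, pseudocounts, filters, left-out libraries and MS2 subsets were further alternatives. Shares used exact permutation tests and exact binomial intervals, which cover counting error only, since reads are not independent molecules. A 0 was bounded by 3 reads per library. Scripts were tested on simulated data. The members, marker lists (striated muscle, blood, epithelial, neural, endothelial), other arms and tests were chosen with earlier results of these data known. Named miRNAs are the members, the other arms of their hairpins, and for each member the 3 miRNAs of highest Pearson correlation.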

Additional observations from a re-analysis of the deposited data

Results flagged for a closer look

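The bait effect over the MS2 control of miR-3074-5p passed a test of the difference between the states, at -2.42 for differentiated minus undifferentiated cells on the log2(signal + 10) scale (limma adjusted p = 0.0241). It compares 440 bait and 5 MS2 reads in differentiated cells with 139 bait and 0 MS2 reads in undifferentiated cells, so its size depends on the pseudocount. An 11.7-fold ratio (4.97 to 36.2) in differentiated cells and one of at least 8.13-fold in undifferentiated cells do not settle in which state the bait effect was larger. The test passed under 13 of 22 alternatives, at -6.48 to -0.86 over all 22, and not with edgeR or DESeq2.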

How the results depend on the processing

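Of 739 member values under alternatives, 59 lost and 27 gained a call, and 2 reversed: miR-27b-3p with bait over MS2 was -0.42 in differentiated and -0.74 in undifferentiated cells with library totals. A further 36 changed sign where neither value was called. The number of members called in input was 3, and 1 to 4 with each library left out. For bait over MS2 in undifferentiated cells it was 4, all higher, and 7 with only those MS2 libraries that held few human-named reads, where miR-23b-3p was also tested. Those 7 did not share a direction, as miR-23a-3p (-1.06) and miR-23b-3p were lower with the bait. The signal of miR-23b-3p was 0, 16.6 and 12.6 with the bait, against 47.5 and 128 in MS2 libraries B and C. They stand beside 134 called of all 228 tested under that setting, 100 higher and 34 lower. For the difference of the bait effect it was 1, but 0 with edgeR, DESeq2, pseudocount 50 and no filter, and 0 to 2 with each library left out. For differentiated against undifferentiated bait eluates it was 2, but 0 with library totals, TMM, pseudocount 1 and no filter, 1 with RLE and edgeR, and 0 to 1 with each library left out. The cause was not tested.

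Shares differ in percentage points. With those same MS2 libraries alone, bait minus MS2 in differentiated cells was 56.4 for miR-24-3p among guides (54.1 with all), 1.69 for miR-27a-5p among miR-27a arms (-4.55), -0.789 for miR-3074-5p beside miR-24-3p (-6.45) and 6.06 for miR-23a-3p among miR-23 (-1.10). With the undifferentiated MS2 library of more human-named reads alone it was 41.9 for miR-23a-3p (25.7 with all), -6.68 for miR-27a-3p among miR-27 (-2.50) and 2.92 for miR-27a-5p (12.7). Some shares whose groups overlapped changed sign with 1 library left out: miR-23a-3p, bait minus MS2 in differentiated cells (-9.73 to 11.1), miR-27a-5p in the same comparison (-7.67 to 0.395) and for bait minus input in undifferentiated cells (-9.28 to 0.654), and miR-24-3p in differentiated minus undifferentiated bait eluates (-0.33 to 9.33).

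Over all miRNAs, input calls were 195, and 102 with all 18 libraries fitted. Calls of the difference of the bait effect were 22, but 14 with library totals, 3 with edgeR, 13 with DESeq2, 11 and 38 with pseudocounts 1 and 50, 2 with no filter, 13 with those MS2 libraries, and 4 to 30 with each library left out. Calls between bait eluates were 65, and 100 with those groups fitted alone. Bait over input in differentiated cells gave 189, and 307 with no filter. No paired analysis was possible because the columns' suffixes are not matched to the replicate numbers of the labels. The MS2 controls, with the fewest reads, limit the values of miR-23b-3p, miR-3074-5p and miR-27a-5p.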

Other observations

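The other arms of these hairpins were mostly scarce in the eluates. miR-24-2-5p had 112 reads with the bait against 5 with the MS2 control in differentiated cells (1.58 ± 0.56, limma adjusted p = 0.0203), and 16 against 19 in undifferentiated cells (-0.53 ± 0.56, limma adjusted p = 0.418). The differentiated value rests on those 5 control reads and stood at -0.79 relative to the median of all tested. The authors' deposited table gave 1.59 there with an FDR of 0.206. miR-24-2-5p was lower with the bait than in input in both states (-1.59 and -3.41, limma adjusted p = 0.00612 and 5.36e-06). That is the opposite of miR-24-3p, whose reads can come from either miR-24 hairpin. miR-23b-5p had 7 reads with the bait, 6 with the MS2 control and 1 in input in differentiated cells, and 3, 17 and 1 in undifferentiated cells, although the MS2 libraries were the shallowest.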
